A study of Mus musculus with 10 samples.

Results

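This comparison sets 3 primitive neuroectodermal tumours (PNET) of the mouse brain against 3 oligo-astrocytomas that grew from grafted neurospheres. The members are the 6 arrays that the labels assign to these tumour types and derivations, out of 10 arrays in the series, and the 14807 genes that stand alone on at least 1 of 23238 transcript clusters. All animals and cells were p53/Rb Flox-Hom, that is, both copies of the tumour suppressor genes p53 (Trp53) and Rb1 carried loxP sites, on a mixed background of C57, FVB and mainly 129 Ola. The PNET (replicates 1, 2 and 3) were dissected after an adenovirus with Cre recombinase (AdCre) had been given into the brain ventricles, so that any infected cell type could lose both genes. The grafted oligo-astrocytomas (replicates 4, 5 and 6) came from spheres that had received AdCre in culture before grafting, and the labels do not describe the host mice. Tumour type and derivation therefore cannot be told apart within these 6 arrays. A single AdCre-induced oligo-astrocytoma (replicate 44), of the same derivation as the PNET, was read only as a side check. The other 3 arrays are of cultured spheres, 2 transduced in vitro with AdCre and 1 with AdGFP. Together these 3 sphere arrays serve as a common zero for chromosome medians below. They also enter the alternative fits on all 10 arrays, which include the one with the AdCre-induced tumour in place of the grafts.

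A primitive neuroectodermal tumour is an embryonal brain tumour of small, poorly differentiated cells, whereas an oligo-astrocytoma is a glioma with oligodendrocyte-like and astrocyte-like cells. Photoreceptors of the retina and pinealocytes of the pineal gland share a regulatory programme under the homeobox factors Otx2 and Crx. Oligodendrocyte precursors carry the receptor Pdgfra and depend on Sox10, and they give rise to the cells that form myelin.

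Expression was read from total RNA on 1-colour Affymetrix mouse exon arrays, and all levels below are the deposited log2 values, on which a difference of 1 is a 2-fold change. Array medians lay between 5.87 and 6.0 in the 6 tumours, and the number of arrays limits the precision. Across transcript clusters the correlation was 0.957 to 0.974 among PNET, 0.9605 to 0.9674 among grafted tumours and 0.9026 to 0.919 between the types. PNET replicate 1 stood apart within its type: among 352 genes with an SD above 1 in PNET, it was the array farthest from the median in 253. Grafted replicate 5 stood apart in anterior pituitary hormone genes, and grafted replicate 4 did so for Prl and Gh, as described further down. Replicates are not tied to separate animals by the labels, so p-values gauge only how far these particular arrays spread, which may be technical. In bulk tissue, fewer cells of a type and less RNA per cell cannot be told apart.

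Differences are PNET minus grafted oligo-astrocytoma on the log2 scale, with the standard error, and limma was run on every transcript cluster with Benjamini-Hochberg adjustment and a threshold of 0.05. Of 14807 genes, 745 rose (5.03%) and 1022 fell (6.9%) in PNET, and these shares are the background for the gene lists. The groups did not overlap for 33.5% of genes. A difference of 2 or more, which is 4-fold, was reached by 204 of the risen and 312 of the fallen genes, and 29 and 36 of them reached 4, which is 16-fold. In each of the 6 fits that left out 1 array, 288 of the risen and 453 of the fallen genes passed again. A gene called risen or fallen below passed in all 6 of those fits, unless an array is named.

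Rb1, one of the targeted genes, had 7.48, 7.48 and 7.64 in PNET, against 6.36, 7.24 and 6.63 in grafted tumours (0.79 ± 0.25, adjusted p = 0.0964, limma). The groups did not overlap, but the difference missed the threshold, and since the value pools probes along the transcript, it can include ones that the deletion leaves intact. Trp53 has no cluster under its own symbol here.

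The 4 genes that mark the tumour types separated the groups. Otx2, a homeobox factor of forebrain, retina and pineal gland, had 11.73, 11.69 and 11.21 in PNET, against 4.75, 4.81 and 5.08 in grafted tumours (6.66 ± 0.21, adjusted p = 2.72e-05, limma). Crx, which drives photoreceptor and pineal genes, had 9.69, 11.19 and 11.34 in PNET, against 4.61, 4.04 and 4.43 in grafted tumours (6.38 ± 0.44, adjusted p = 0.000324). In both genes every PNET array lay more than 4 log2 units above every grafted one. Pdgfra, a PDGF receptor that marks oligodendrocyte precursors, had 4.62, 4.69 and 4.54 in PNET, against 10.92, 10.97 and 11.29 in grafted tumours (-6.44 ± 0.18, adjusted p = 2.28e-05). Sox10, the lineage factor of oligodendrocytes, had 5.66, 5.58 and 5.63 in PNET, against 9.60, 9.75 and 9.12 in grafted tumours (-3.87 ± 0.21, adjusted p = 0.00014). The markers thus followed the labelled tumour types on all 6 arrays, and the AdCre-induced oligo-astrocytoma read 4.58 and 4.55 for Otx2 and Crx and 10.85 and 9.47 for Pdgfra and Sox10.

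**Figure D1:**
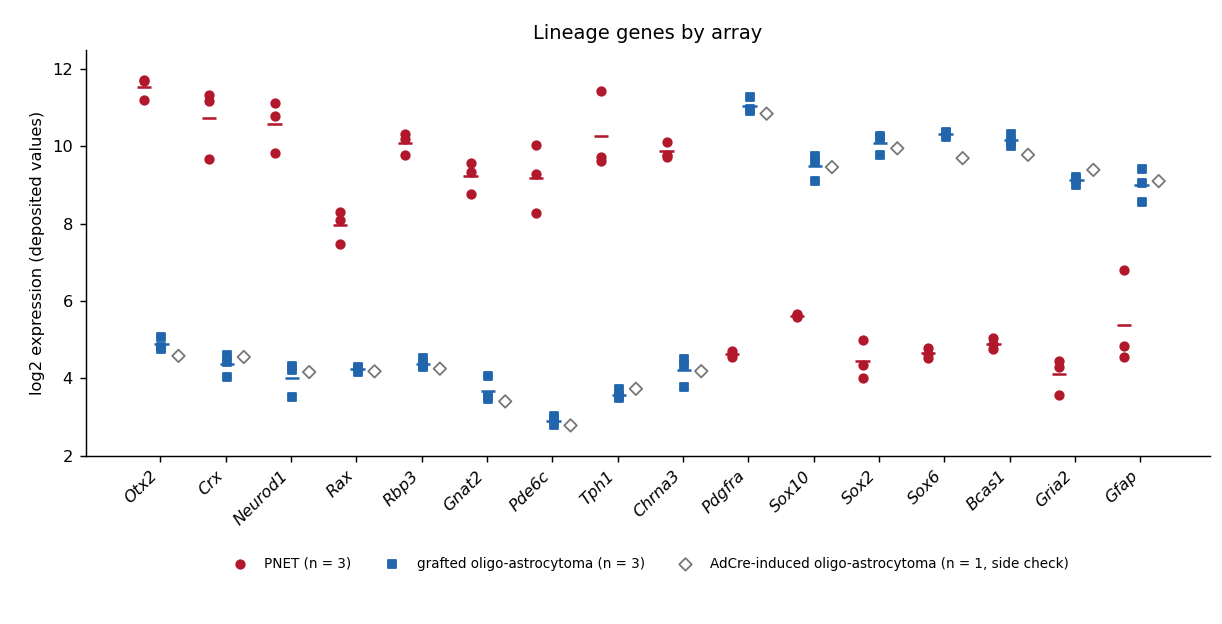
Deposited log2 expression (y axis) of 16 genes of the photoreceptor, pineal, precursor, glial, neural stem and transmitter receptor lists (x axis). PNET arrays are red circles, grafted oligo-astrocytomas blue squares, group means bars and the single AdCre-induced oligo-astrocytoma an open diamond. The groups do not overlap for any of the 16 genes, all of which passed, nor for 33.5% of all genes. The closest are the PNET array at 6.79 and the grafted array at 8.55 for Gfap.

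Transcription factors of photoreceptors and their precursors rose for 8 of 16 measured members and fell for 0, with a median difference of 2.14 against 0.00 over all genes. Neurod1, a factor of photoreceptor and pineal precursors and of neurons, had 9.83, 11.13 and 10.79 in PNET, against 4.20, 4.31 and 3.52 in grafted tumours (6.57 ± 0.37, adjusted p = 0.000155, limma). Neurod4, a related factor, had 9.67, 9.89 and 10.95 in PNET, against 4.15, 5.70 and 4.13 in grafted tumours (5.51 ± 0.50, adjusted p = 0.00111). Rax, which specifies the eye field, rose by 3.73 ± 0.24 and Lhx4, a homeobox factor of cones and pineal gland, by 2.44 ± 0.23. The list's other rises were Isl2 (2.14 ± 0.30) and Rorb (2.44 ± 0.46), and the Rorb call was lost (adjusted p = 0.0694, limma) once PNET replicate 3 was left out. Nrl, the factor that directs precursors to the rod fate, averaged 4.61 in PNET with a difference of 0.33, which did not pass. The cone factors Thrb and Rxrg had differences of 2.15 and 1.26 without passing. Nrl, Thrb and Rxrg were singled out among the 8 members that did not pass after their values were seen.

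Rod phototransduction genes, which turn light capture into a change of membrane current, rose for 7 of 17 members, with a median of 1.26. Grk1, the kinase that shuts off rhodopsin, had 7.75, 7.52 and 7.96 in PNET, against 4.26, 4.26 and 4.79 in grafted tumours (3.31 ± 0.22, adjusted p = 0.000301, limma). Rgs9, which speeds the turn-off of transducin, rose by 2.65 ± 0.33, the guanylate cyclase Gucy2e by 2.51 ± 0.31, the arrestin Sag by 2.33 ± 0.37 and the cyclase activator Guca1a by 1.94 ± 0.22. The number of risen rod genes was 11 without PNET replicate 1, in which Sag read 6.28 beside 7.28 and 7.81 in the other PNET. It was 6 without grafted replicate 4 and 5 without PNET replicate 2 or 3 or grafted replicate 5 or 6. Pde6g, a phosphodiesterase subunit among the 7 (1.45), passed only without PNET replicate 1 among those fits. Recoverin (Rcvrn) and the rod transducin and phosphodiesterase subunits Gnat1, Pde6a and Pde6b did not pass, with differences of -0.05, 1.66, 0.82 and 0.81.

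Cone phototransduction genes rose for 6 of 12 members, with a median of 1.46. Pde6c, the cone phosphodiesterase, had 8.27, 9.28 and 10.04 in PNET, against 2.78, 3.02 and 2.92 in grafted tumours (6.29 ± 0.41, adjusted p = 0.000282, limma). Gnat2, the cone transducin subunit, had 8.78, 9.56 and 9.35 in PNET, against 3.54, 4.05 and 3.46 in grafted tumours (5.55 ± 0.27, adjusted p = 9.67e-05). Its partner Gnb3 rose by 4.55 ± 0.46, and the cone channel subunits Cngb3 and Cnga3 rose by 2.77 ± 0.17 and 1.52 ± 0.18. The light receptors themselves did not pass: the cone opsins Opn1sw and Opn1mw averaged 4.33 and 3.75 in PNET, with differences of 0.10 and -0.12. No cluster with a single symbol stood for rhodopsin, and the opsins were singled out after their values were seen.

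Genes of the outer segment disc, the matrix around photoreceptors, the connecting cilium and the visual cycle had 14 of 22 members higher and 0 lower, with a median of 2.24. Impg2, a proteoglycan of that matrix, had 10.15, 10.39 and 11.25 in PNET, against 4.58, 4.21 and 4.01 in grafted tumours (6.33 ± 0.31, adjusted p = 0.000113, limma). Rbp3, which carries retinoids through the same matrix, had 9.79, 10.19 and 10.32 in PNET, against 4.53, 4.33 and 4.28 in grafted tumours (5.72 ± 0.20, adjusted p = 3.13e-05). Abca4, the retinoid transporter of the disc, rose by 3.51 ± 0.29, the disc cadherin Cdhr1 by 5.52 ± 0.18, the scaffold protein Mpp4 by 4.70 ± 0.33 and the ciliary protein Rpgrip1 by 4.64 ± 0.34. Mak, a kinase of the photoreceptor cilium, rose by 3.65 ± 0.61, with 5.78 in PNET replicate 1 beside 7.66 and 8.51, and its adjusted p was 0.0518 (limma) once PNET replicate 2 was left out. In each of these 7 genes, which all passed, the lowest PNET value exceeded the highest grafted value, as in 15.7% of all genes.

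The start regions of several of these genes hold the core site that Otx2 and Crx bind. Windows of 300 bases around annotated starts were taken from RefSeq on GRCm38.p6 and searched on both strands for TAATCC, whose reverse complement is GGATTA. A gene counted if any of its windows held the site. Of 62 measured photoreceptor and pineal genes with a window, 18 held it (29%), and of the 32 among them that had risen, 12 did (37.5%). The risen pineal genes had none among 6 with a window, and the risen disc, matrix and visual cycle genes had 6 of 13. The share was 7.27% over all measured genes (862 of 11855), 12.2% over all risen genes (72 of 590) and 5.31% over all fallen genes (44 of 829), and 7.06% of all 32851 windows held it. Among the called precursor, myelin and astrocyte genes, 4 of 34 held it (11.8%). The 8 stretches below, each from 120 bases before the annotated start to 30 bases after it, are a selection from risen genes with a site there. Each is written 5′ to 3′ along its gene, with the site in capitals, and in all 8 it reads GGATTA on the strand of the gene. Mpp4 and Unc119 also rose and hold a site in such a stretch, though not in every window, and are not printed. In Mak the site lies outside such a stretch, 218 bases before the start, and reads TAATCC.

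Crx (chr7:15879926-15880075, minus strand): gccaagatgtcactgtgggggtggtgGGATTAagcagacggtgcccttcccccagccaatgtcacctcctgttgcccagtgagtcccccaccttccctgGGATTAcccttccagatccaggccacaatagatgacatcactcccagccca
Rbp3 (chr14:33953883-33954032, plus strand): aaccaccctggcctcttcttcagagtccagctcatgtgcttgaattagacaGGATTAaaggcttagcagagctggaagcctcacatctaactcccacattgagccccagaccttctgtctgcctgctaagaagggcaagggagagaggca
Gnat2 (chr3:108092946-108093095, plus strand): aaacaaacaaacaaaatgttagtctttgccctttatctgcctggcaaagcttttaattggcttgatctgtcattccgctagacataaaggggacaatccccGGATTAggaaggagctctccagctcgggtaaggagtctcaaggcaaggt
Rpgrip1 (chr14:52110783-52110932, plus strand): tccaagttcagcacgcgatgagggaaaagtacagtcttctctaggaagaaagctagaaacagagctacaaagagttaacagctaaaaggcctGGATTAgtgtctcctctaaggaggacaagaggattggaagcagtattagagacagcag
Gucy2e (chr11:69236993-69237142, minus strand): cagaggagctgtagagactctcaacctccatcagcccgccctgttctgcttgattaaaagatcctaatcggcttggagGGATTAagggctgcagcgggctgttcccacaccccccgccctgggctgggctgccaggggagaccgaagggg
Guca1a (chr17:47400577-47400726, minus strand): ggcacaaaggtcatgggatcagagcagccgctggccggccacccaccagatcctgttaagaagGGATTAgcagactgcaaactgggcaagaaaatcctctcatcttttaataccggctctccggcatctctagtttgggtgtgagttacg
Abca4 (chr3:122044340-122044489, plus strand): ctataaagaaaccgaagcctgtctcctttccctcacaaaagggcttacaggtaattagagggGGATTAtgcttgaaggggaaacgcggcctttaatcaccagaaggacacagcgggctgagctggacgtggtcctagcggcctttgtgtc
Sag (chr1:87803560-87803709, plus strand): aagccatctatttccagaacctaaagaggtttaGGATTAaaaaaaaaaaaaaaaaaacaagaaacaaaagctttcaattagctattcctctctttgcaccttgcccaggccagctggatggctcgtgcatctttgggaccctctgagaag

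The first base of the site lies 94 and 21 bases before the start in Crx, 69 in Rbp3, 19 in Gnat2, 28 in Rpgrip1, 42 in Gucy2e, 57 in Guca1a, 58 in Abca4 and 87 in Sag. Crx, whose own product binds such sites, is the one promoter here with 2. Otx2 has the site once, 211 bases before the start of 1 of its 4 annotated windows, and Pdgfra has none in its window. For AACAAAG, a core site of Sox factors, searched in the same way and not overlapping TAATCC in its letters, the shares were 4.58% of risen, 5.31% of fallen and 5.61% of all measured genes. A match is a description of letters and shows no binding.

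Of 15 pineal gland genes, 6 rose and 0 fell, with a median of 0.75. The 6 were Tph1, Bsx, Lhx4, Pax6 and the nicotinic receptor subunits Chrna3 and Chrnb4, some of which are also counted in other lists. Without PNET replicate 2 or 3 or grafted replicate 6, Pax6 did not pass and 5 rose. Tph1, which starts the pathway to serotonin and melatonin, had 9.73, 9.63 and 11.43 in PNET, against 3.53, 3.49 and 3.71 in grafted tumours (6.69 ± 0.46, adjusted p = 0.000338, limma). Bsx, a homeobox factor of pineal gland and hypothalamus, had 9.91, 8.88 and 9.13 in PNET, against 4.88, 4.61 and 4.45 in grafted tumours (4.66 ± 0.29, adjusted p = 0.000239). The enzyme that acetylates serotonin on the way to melatonin, Aanat, averaged 4.69 in PNET with a difference of 0.38, and Ddc, the decarboxylase between Tph1 and serotonin, had 2.43, neither of which passed. Aanat and Ddc were singled out after their values were seen.

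Nicotinic acetylcholine receptor subunits, which pinealocytes and autonomic neurons carry, had 4 of 14 members higher and 0 lower. Chrna3 had 9.77, 9.74 and 10.11 in PNET, against 4.35, 4.51 and 3.77 in grafted tumours (5.66 ± 0.24, adjusted p = 7.77e-05, limma). Chrnb4, which pairs with Chrna3, had 8.74, 9.82 and 9.84 in PNET, against 5.25, 4.83 and 5.26 in grafted tumours (4.35 ± 0.33, adjusted p = 0.000487). Both subunits separated the groups by over 3 log2 units on every array. Chrna7 and Chrnb2 rose by 1.41 and 0.83, and these calls failed without PNET replicate 2 or 3 or grafted replicate 4 or 6, which left 2 risen subunits, and for Chrna7 also without grafted replicate 5.

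The ribbon synapse, by which photoreceptors release glutamate, had 8 of 16 members higher and 0 lower, with a median of 1.60. Cplx4, a complexin of the ribbon, had 6.02, 8.56 and 8.64 in PNET, against 2.70, 2.75 and 2.65 in grafted tumours (5.04 ± 0.65, adjusted p = 0.00447, limma). The vesicular glutamate transporter Slc17a7 had 7.15, 9.15 and 9.55 in PNET, against 5.08, 5.12 and 5.28 in grafted tumours (3.46 ± 0.57, adjusted p = 0.0114). PNET replicate 1 was the lowest PNET for both, though above every grafted tumour. The calcium channel Cacna1f of the ribbon rose by 3.38 ± 0.33 and Sv2b by 3.13 ± 0.41.

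Of 27 synapse and mature neuron genes, 7 rose and 2 fell, with a median of 0.69. Syp, an abundant vesicle protein, had 9.97, 11.08 and 11.02 in PNET, against 6.79, 7.47 and 6.41 in grafted tumours (3.80 ± 0.38, adjusted p = 0.00164, limma). Snap25, of the vesicle fusion machinery, had 9.73, 10.78 and 10.55 in PNET, against 6.37, 7.83 and 4.98 in grafted tumours (3.96 ± 0.67, adjusted p = 0.0124), and its call was lost with PNET replicate 2 or 3 left out (adjusted p = 0.0521 and 0.0515, limma). Gap43, of growing axons and glial precursors, had 6.49, 6.50 and 6.06 in PNET, against 10.32, 9.97 and 10.19 in grafted tumours (-3.81 ± 0.20, adjusted p = 0.000136). The other fallen member, Stx1a (-0.76), passed in none of the 6 fits that left out an array. Risen members numbered 3 when PNET replicate 2 was omitted, and 4 when PNET replicate 3 or grafted replicate 4 or 6 was.

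Among neurogenic and neuronal factors, 3 of 25 rose and 4 fell, with a median of -0.03. Neurod1 and Neurod4 were among the rises, whereas the RNA-binding proteins of young neurons Elavl3 and Elavl4 fell: Elavl3 had 5.48, 5.77 and 5.93 in PNET, against 7.71, 8.57 and 9.01 in grafted tumours (-2.70 ± 0.34, adjusted p = 0.0038, limma), and Elavl4 fell by 1.99. Myt1, a zinc finger factor of neurons and oligodendrocyte precursors, fell by 1.63. Insm1 (0.85) and St18 (-2.93) passed in the fit of all 6 arrays but in only 1 of the 6 fits without an array, without grafted replicate 5 for Insm1 and without grafted replicate 6 for St18.

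Among markers of other retinal cells, 2 of 20 rose and 2 fell, with a median of 0.08. Rlbp1, the retinoid-binding protein of Mueller glia and pigment epithelium, had 4.48, 4.53 and 4.71 in PNET, against 8.61, 9.80 and 9.74 in grafted tumours (-4.81 ± 0.33, adjusted p = 0.000324, limma), and Prox1, a factor of horizontal cells and many other tissues, fell by 2.27. Lhx1, a factor of horizontal and amacrine cells, rose by 1.87 ± 0.31. Grm6, the glutamate receptor of bipolar cells, rose by 0.82 ± 0.17 and passed only without PNET replicate 1 among the fits that left out an array. The bipolar cell markers Vsx1 and Trpm1 read at most 4.48 in any of the 6 tumours and did not pass. Of 12 pigment epithelium and pigment cell genes, 1 rose: Rdh5, a retinol dehydrogenase, with 8.96, 9.02 and 9.94 in PNET, against 6.01, 5.49 and 5.71 in grafted tumours (3.57 ± 0.30, adjusted p = 0.000806). Its defining marker Rpe65 read at most 2.98 in any of the 6 tumours.

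Of 14 choroid plexus and ependyma markers, 3 rose and 0 fell, namely Otx2, Calml4 (4.01 ± 0.65) and the folate receptor Folr1 (1.61 ± 0.26). Ttr, the main secreted protein of choroid plexus, had 7.40, 4.99 and 4.92 in PNET, against 5.14, 4.90 and 4.93 in grafted tumours, and did not pass (adjusted p = 0.528, limma). Its one high value was in PNET replicate 1. The list mean, which includes Otx2 and Calml4, was 5.74 to 5.95 in PNET and 4.63 to 4.71 in grafted tumours. The part of choroid plexus cells in the differences was not tested. Cerebellar and hindbrain regulators rose for 2 of 20 members, Barhl2 by 1.19 ± 0.19 and Zic2 by 1.79 ± 0.42, and Zic2 passed without grafted replicate 6 but in none of the other 5 fits. Pax3, a factor of the dorsal neural tube and neural crest, had 8.29, 7.66 and 8.53 in PNET, against 4.33, 4.19 and 4.03 in grafted tumours (3.97 ± 0.26, adjusted p = 0.00026). Pax6, an eye and forebrain factor, rose by 1.97 and did not pass without PNET replicate 2 or 3 or grafted replicate 6.

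**Figure D2:**
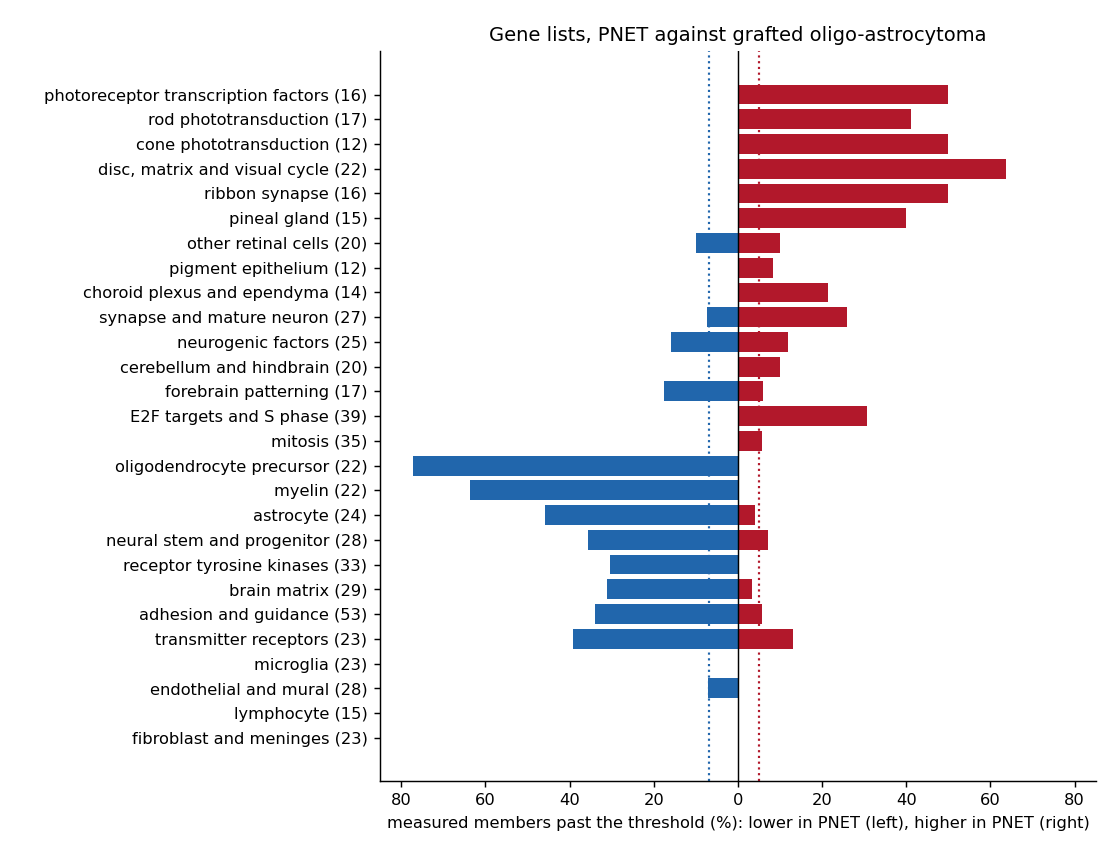
Share of measured members past the threshold in each gene list (bars, in percent), higher in PNET to the right in red and lower in PNET to the left in blue, with the number measured after each name and the shares over all genes, 5.03% and 6.9%, as dotted lines. The photoreceptor and pineal lists have members to the right only, the oligodendrocyte precursor and myelin lists to the left only, and the microglia, lymphocyte and fibroblast lists have none.

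Hox genes, which set position along the body axis and are mostly silent in forebrain, rose for 6 of 32 measured members, and all 6 belong to the Hoxc cluster on chromosome 15. Hoxc5 had 7.37, 6.40 and 7.36 in PNET, against 3.37, 3.01 and 3.52 in grafted tumours (3.75 ± 0.30, adjusted p = 0.000669, limma). Hoxc8 had 6.93, 7.74 and 8.25 in PNET, against 4.83, 4.23 and 5.32 in grafted tumours (2.85 ± 0.40, adjusted p = 0.00587). Hoxc6, Hoxc4 and Hoxc9 rose by 2.52 ± 0.39, 2.14 ± 0.23 and 2.06 ± 0.28. Hoxc10 rose by 1.999 ± 0.36 and did not pass without PNET replicate 2 or grafted replicate 5 (adjusted p = 0.0523 to 0.0615). The 5′ members Hoxc12 and Hoxc13 had differences of 0.26 and -0.10 and did not pass, and neither did any of the 8 Hoxa, 10 Hoxb and 6 Hoxd genes, whose median differences were -0.34, 0.01 and 0.05. Transcripts of neighbouring Hoxc genes can overlap, so the 6 values are not independent. In the AdCre-induced oligo-astrocytoma the 6 genes read 3.09 to 4.77.

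**Figure D3:**
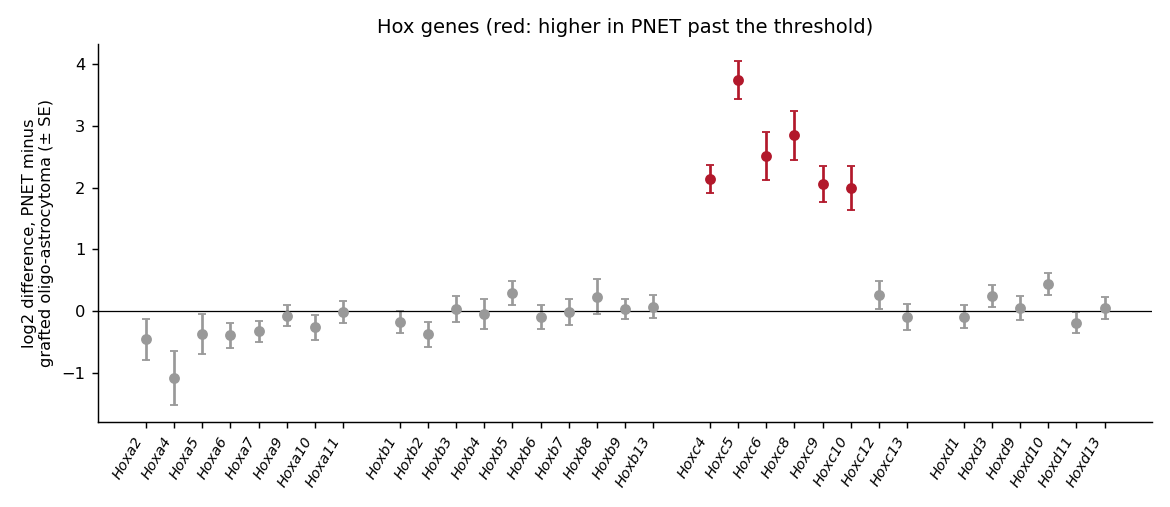
Log2 difference, PNET minus grafted oligo-astrocytoma, with its standard error (y axis, n = 3 in each group), for 32 Hox genes grouped by cluster (x axis). Hoxc4, Hoxc5, Hoxc6, Hoxc8, Hoxc9 and Hoxc10 lie between 1.999 and 3.745 in red, while the genes in grey lie between -1.08 and 0.44 and did not pass.

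E2F targets and DNA replication genes, which the Rb protein restrains, had 12 of 39 members higher and 0 lower, and their median difference was 0.85. Slbp, a binder of histone mRNA, had 5.83, 5.29 and 6.40 in PNET, against 3.04, 2.49 and 3.27 in grafted tumours (2.91 ± 0.33, adjusted p = 0.00264, limma). E2f1 rose by 1.86 ± 0.25, the helicase Hells by 1.83 ± 0.24, and the licensing factors Cdc6 and Cdt1 by 1.78 ± 0.18 and 1.71 ± 0.23. Risen members numbered 6 when PNET replicate 3 was omitted, and 7 when PNET replicate 2 or grafted replicate 4 or 6 was. Mitosis genes rose for 2 of 35, Spc25 and Spc24 of the kinetochore, with a median of 0.52. Neither passed without PNET replicate 1, 2 or 3 or grafted replicate 4 or 6, where 0 mitosis genes rose, and 5 rose without grafted replicate 5. The list mean was 8.21 to 8.50 in PNET, against 8.35 in grafted replicate 5 and 7.65 and 7.45 in grafted replicates 4 and 6.

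Cdkn1a, the cell cycle inhibitor p21 and a classical p53 target, had 8.72, 9.24 and 9.17 in PNET, against 6.33, 5.56 and 5.19 in grafted tumours (3.35 ± 0.31, adjusted p = 0.00128, limma). Among 29 p53 targets 3 rose, the others being Dglucy (1.28 ± 0.21) and Gadd45a (1.22 ± 0.24), and Zmat3 fell by 1.201. Gadd45a did not pass without PNET replicate 3 or grafted replicate 5 or 6, and 6 targets rose without PNET replicate 1. Ccnd1, cyclin D1, had 6.56, 6.29 and 6.38 in PNET, against 10.57, 7.67 and 10.03 in grafted tumours (-3.01 ± 0.68, adjusted p = 0.0345), and among the fits that left out an array it passed only without grafted replicate 5, its lowest grafted value. Myc had 7.79, 8.71 and 8.13 in PNET, against 10.65, 9.95 and 10.28 in grafted tumours (-2.09 ± 0.29, adjusted p = 0.00608), and Mycl fell by 1.77. Their relative Mycn had 8.05, 9.24 and 9.46 in PNET, against 5.88, 6.41 and 8.98 in grafted tumours, a difference of 1.83 ± 0.79 that did not pass (adjusted p = 0.214), and was singled out after its values were seen.

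Of 22 oligodendrocyte precursor genes, 17 fell and 0 rose, with a median of -2.97. Sox6, which holds precursors undifferentiated, had 4.63, 4.54 and 4.77 in PNET, against 10.24, 10.36 and 10.38 in grafted tumours (-5.68 ± 0.17, adjusted p = 2.28e-05, limma). Gpr17, a receptor of committed precursors, had 5.04, 5.19 and 5.05 in PNET, against 10.13, 10.49 and 10.86 in grafted tumours (-5.40 ± 0.22, adjusted p = 7e-05). The spread within each group was small beside the gap, as it was for Pdgfra. The matrix proteins Tnr and Bcan fell by 5.12 and 4.96. Sox9, Sox5, Cspg5, Pcdh15 and Matn4 did not pass, with differences of 0.04, -1.03, -0.43, -3.61 and -1.47.

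Of 22 oligodendrocyte differentiation and myelin genes, 14 fell and 0 rose, with a median of -2.97. Bcas1, of oligodendrocytes that begin to myelinate, had 4.89, 5.03 and 4.76 in PNET, against 10.32, 10.13 and 10.02 in grafted tumours (-5.26 ± 0.18, adjusted p = 2.72e-05, limma). Gjc3, a connexin of myelinating glia, had 4.48, 4.41 and 4.24 in PNET, against 11.50, 9.86 and 7.89 in grafted tumours (-5.37 ± 0.78, adjusted p = 0.00712). Bcas1, Enpp6 (-4.46 ± 0.27) and Zfp488 (-3.99 ± 0.29) varied by less than 1 log2 unit across the grafts, whereas other members differed more among them. Mog, of the outer myelin surface, had 4.73, 5.25 and 4.95 in PNET, against 10.06, 6.65 and 6.08 in grafted tumours and did not pass (adjusted p = 0.136). Mag, of the inner myelin layer, had 4.61, 4.66 and 4.68 in PNET, against 9.69, 7.73 and 5.52 in grafted tumours and did not pass either (adjusted p = 0.086). Myelin basic protein (Mbp) fell by 2.94 ± 0.57 and did not pass without PNET replicate 2 or 3 or grafted replicate 4 or 5. The list mean was 5.21, 5.27 and 5.30 in PNET, against 9.01, 7.99 and 7.24 in grafted replicates 4, 5 and 6.

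Of 24 astrocyte genes, 11 fell and 1 rose, with a median of -1.54. Gfap, the filament of reactive and mature astrocytes, had 4.55, 6.79 and 4.84 in PNET, against 8.55, 9.07 and 9.43 in grafted tumours (-3.62 ± 0.57, adjusted p = 0.0101, limma). S100b, a calcium-binding protein of glia, had 4.53, 4.74 and 4.70 in PNET, against 9.38, 8.15 and 7.84 in grafted tumours (-3.80 ± 0.38, adjusted p = 0.00164). PNET replicate 2 was the highest PNET for Gfap, and it also read 7.99 for the water channel Aqp4 beside 6.11 and 5.97. Gpr37l1, Agt, Aldoc and Mlc1 fell by 4.09, 3.55, 3.26 and 3.22. Atp1b2, a subunit of the sodium pump that photoreceptors also carry, rose by 1.12 ± 0.26, which passed only without PNET replicate 1 among the fits that left out an array.

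Of 28 neural stem and progenitor genes, 10 fell and 2 rose. Sox2, a core factor of neural stem cells, had 4.01, 5.00 and 4.34 in PNET, against 9.77, 10.28 and 10.21 in grafted tumours (-5.63 ± 0.29, adjusted p = 0.000123, limma). Over the whole Sox family, 6 of 18 fell and 0 rose, the others being Sox6, Sox10, Sox8 (-3.10 ± 0.41), Sox4 (-2.61 ± 0.39) and Sox21 (-1.02 ± 0.19). Sox21 did not pass without PNET replicate 2 or grafted replicate 5 or 6. The endothelin receptor Ednrb fell by 3.53, Notch1 by 2.38 and the fatty acid binder Fabp7 by 1.97. Hes1, a repressor downstream of Notch, had 8.28, 8.602 and 8.77 in PNET, against 6.91, 5.87 and 6.34 in grafted tumours (2.18 ± 0.29, adjusted p = 0.00504), whereas Hes5, another target of the same pathway, fell by 1.33 ± 0.20 (adjusted p = 0.00822). The second rise in the stem list was Pax6, and the list had 1 rise and 6 falls when PNET replicate 2 or 3 or grafted replicate 6 was omitted.

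Of 33 receptor tyrosine kinases and ligands, 10 fell and 0 rose. Kit, the stem cell factor receptor, had 6.27, 6.07 and 6.11 in PNET, against 9.57, 11.56 and 9.96 in grafted tumours (-4.22 ± 0.48, adjusted p = 0.00259, limma). The neurotrophin receptor Ntrk3 fell by 2.26 ± 0.20, and the FGF receptor Fgfr3 (-2.003 ± 0.23) fell as well. Ntrk2, which binds the neurotrophin BDNF, had 7.83, 5.56 and 4.67 in PNET, against 9.51, 9.56 and 10.24 in grafted tumours, and passed only without PNET replicate 1 among those fits. The list had 6 fallen members without PNET replicate 2 or 3.

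Brain matrix genes, the proteoglycans and tenascins around neural cells, were lower in 9 cases of 29 and higher in 1. Vcan, a large proteoglycan, had 7.44, 4.33 and 4.84 in PNET, against 10.70, 10.99 and 11.38 in grafted tumours (-5.48 ± 0.74, adjusted p = 0.00533, limma). Ncan, its neural relative, had 5.71, 8.37 and 5.93 in PNET, against 10.62, 11.16 and 11.41 in grafted tumours (-4.40 ± 0.67, adjusted p = 0.00843). The high PNET array was replicate 1 for Vcan and replicate 2 for Ncan. Hapln4, a link protein, rose by 1.02 ± 0.26 and passed in none of the 6 fits without an array.

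Of 53 neural adhesion and guidance genes, 18 fell and 3 rose, and 11 fell without PNET replicate 2 and 10 without PNET replicate 3. The latrophilin Adgrl3 had 4.79, 4.79 and 4.36 in PNET, against 9.78, 10.29 and 10.15 in grafted tumours (-5.43 ± 0.22, adjusted p = 7e-05, limma). Ncam2 fell by 5.35, the guidance cue Sema3d by 4.55, the neuroligins Nlgn3 and Nlgn1 by 4.36 and 3.98, and neurofascin (Nfasc) by 4.08. Against this direction, L1cam, an adhesion molecule of growing axons, had 7.62, 7.57 and 7.32 in PNET, against 5.71, 5.16 and 4.79 in grafted tumours (2.28 ± 0.26, adjusted p = 0.0027), and the plexin Plxna4 rose by 1.89. Efna5, an ephrin, rose by 1.54 and passed in none of the fits that left out an array. Among 31 protocadherins, 6 fell and Pcdh18 rose by 2.75 ± 0.40. Pcdh10, Pcdh7 and Pcdh17 fell by 3.74, 3.68 and 2.99, and the family's fallen members numbered 3 without grafted replicate 5. The clustered members Pcdhb2, Pcdhb3 and Pcdhb5 were lowest in PNET replicate 3, at 4.96, 4.47 and 3.74, beside 5.65 to 6.92 in the other PNET.

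Ionotropic receptor subunits for glutamate, GABA and glycine split, with 9 of 23 lower and 3 higher. The AMPA subunit Gria2 had 4.30, 4.46 and 3.56 in PNET, against 9.21, 9.17 and 9.004 in grafted tumours (-5.02 ± 0.26, adjusted p = 0.000132, limma). Gria4 and Gria3 fell by 5.15 and 3.34, the kainate subunit Grik2 by 3.41 and the GABA subunit Gabra3 fell as well (-2.55). The glycine receptor subunit Glra1 had 5.32, 5.16 and 4.91 in PNET, against 3.09, 2.92 and 3.09 in grafted tumours (2.10 ± 0.18, adjusted p = 0.000897), and Glra3 rose by 1.70. The third risen member, Grin2c (0.91), did not pass without PNET replicate 2 or 3 or grafted replicate 4 or 5.

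Several families changed in both directions, so that one subunit stood high in PNET and another in the grafts. Of 73 potassium channel genes 9 rose and 8 fell. The accessory subunit Kcnab1 had 9.41, 9.38 and 10.02 in PNET, against 4.37, 5.36 and 4.37 in grafted tumours (4.90 ± 0.33, adjusted p = 0.000294, limma), while the glial inward rectifier Kcnj10 fell by 2.93 ± 0.32 and Kcnd2 by 2.77 ± 0.42. Risen channels numbered 4 when grafted replicate 5 was omitted, and 5 when PNET replicate 3 or grafted replicate 4 or 6 was. Of 18 voltage-gated calcium channel subunits 3 rose, led by Cacna1f and Cacng2 (3.07 ± 0.31), and 3 fell, led by Cacng4 (-3.08 ± 0.29). Fallen ones numbered 1 without PNET replicate 1 or 2 or grafted replicate 5 or 6. Of 30 G protein subunits Gnat2, Gnb3 and Gnb5 (1.55 ± 0.26) rose and 5 fell, among them Gng2 (-3.31 ± 0.46) and Gng12 (-3.23 ± 0.29), and 5 rose without PNET replicate 1.

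Cilium and Bardet-Biedl genes rose for 9 of 55 members, and 2 fell. Tulp1, which traffics proteins to the photoreceptor cilium, had 7.46, 8.07 and 7.30 in PNET, against 5.17, 5.15 and 5.46 in grafted tumours (2.35 ± 0.24, adjusted p = 0.00181, limma), and Bbs5 rose by 1.29 ± 0.19. Rpgrip1, described above, also belongs here. Fallen members numbered 0 without PNET replicate 2 or 3 or grafted replicate 4, 5 or 6. Risen members numbered 5 when grafted replicate 4 was omitted, and 3 when PNET replicate 2 or 3 or grafted replicate 6 was.

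Of 14 Hedgehog genes 1 rose and 3 fell, of 35 Wnt genes 1 and 5, of 20 Notch genes 2 and 3, and of 29 BMP and Id genes 2 and 3, beside 5.03% and 6.9% of all genes. In the fits that left out an array 0 or 1 of the BMP and Id genes rose, 1 fell without PNET replicate 2 or 3 or grafted replicate 6, and 2 Hedgehog genes rose without grafted replicate 6. The Hedgehog co-receptor Cdon rose by 2.27 ± 0.25, and the receptor Ptch1, whose expression is itself a readout of the pathway, had 7.66, 7.42 and 7.74 in PNET, against 9.02, 8.67 and 8.74 in grafted tumours (-1.201 ± 0.19, adjusted p = 0.00922, limma). Smo, its signalling partner, and Ccnd1 were the other fallen members, and 1 fell without PNET replicate 2 or 3. The difference of Smo was -1.14, and its call was lost with PNET replicate 2 or 3 or grafted replicate 5 or 6 omitted. The Wnt receptor Fzd4 rose by 1.39 ± 0.19 and Tcf7l2 fell by 2.14, and the fallen Wnt genes numbered 3 when PNET replicate 2 or grafted replicate 4 was omitted and 2 when grafted replicate 6 was. Of 23 sterol and fatty acid synthesis genes, Acly, which makes cytosolic acetyl-CoA, had 11.76, 11.88 and 12.09 in PNET, against 9.50, 9.71 and 9.87 in grafted tumours (2.22 ± 0.19, adjusted p = 0.000806). Elovl6, a fatty acid elongase, fell by 2.80 ± 0.23 (adjusted p = 0.000693), and 2 fell without PNET replicate 1.

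Among the 20 largest rises were genes outside these lists. Tc2n led them, with 7.51, 10.34 and 10.67 in PNET, against 2.67, 2.85 and 2.56 in grafted tumours (6.81 ± 0.76, adjusted p = 0.00245, limma). Carbonic anhydrase Car2 had 12.003, 11.38 and 11.83 in PNET, against 8.19, 5.29 and 5.10 in grafted tumours (5.54 ± 0.76, adjusted p = 0.00572). Tmem215, the eye development gene Mab21l1 and dystrophin (Dmd) rose by 6.25, 5.32 and 4.83. Among the 20 largest falls outside the lists, Vxn had 4.41, 4.48 and 3.57 in PNET, against 9.73, 10.56 and 10.64 in grafted tumours (-6.16 ± 0.34, adjusted p = 0.00015), and Brinp3, Luzp2, Tmeff2, Omg and Chn2 fell by 5.34, 5.26, 4.92, 4.84 and 4.82. For 12 of the 20 rises and 8 of the 20 falls, the lower of the 2 group means was under the first quartile of all clusters, near the floor of the arrays.

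Of 23 microglia genes 0 passed in either direction, with a median of -0.49 and list means of 5.71 to 6.37 in PNET and 6.22 to 7.04 in grafted tumours. Lymphocyte genes (15 measured) and fibroblast and meningeal genes (23) likewise had 0 calls, and of 28 endothelial and mural genes Ramp2 and Cspg4 fell, Cspg4 being a gene of oligodendrocyte precursors as well. Ramp2 did not pass without PNET replicate 2 or 3 or grafted replicate 4 or 6, nor Cspg4 without PNET replicate 2 or grafted replicate 5 or 6. The part of microglia, lymphocytes, fibroblasts and vessel cells in the differences above was not tested.

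Interferon and MHC class I genes had 0 of 20 members past the threshold but a median of 0.91. Their mean was 5.78 in PNET replicate 1 and 7.41 and 7.26 in replicates 2 and 3, against 5.56 to 6.29 in grafted tumours, and without PNET replicate 1, 12 rose. MHC class II genes had means of 6.24, 7.38 and 7.77 in PNET, against 7.94, 6.30 and 6.11 in grafted tumours. Hypoxia and glycolysis genes showed the same array standing apart the other way, with means of 8.13, 6.91 and 6.91 in PNET, against 7.37 to 7.58 in grafted tumours. The part of these array differences in the other results was not tested. Of the 26 hypoxia and glycolysis genes, 3 rose and 4 fell, with 10 falls without PNET replicate 1 and 2 without PNET replicate 2 or 3 or grafted replicate 4 or 5. The vascular peptide Adm, which hypoxia induces, had 7.20, 7.88 and 7.22 in PNET, against 4.46, 5.16 and 4.34 in grafted tumours (2.78 ± 0.29, adjusted p = 0.00201, limma).

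The genes that varied most within PNET were high in replicate 1. C1qtnf3 had 9.59, 3.84 and 3.94, the imprinted growth regulator H19 had 11.08, 6.05 and 5.92, and Egln3, an oxygen sensor that hypoxia induces, had 9.61, 4.97 and 5.02. Olfr1284, Cacna2d3 and Mgarp had the same shape, at 7.84 to 9.46 in replicate 1 and at most 5.41 in the other PNET. None of the 6 passed between the types.

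The genes that varied most within the grafts were pituitary hormones and the angiotensin receptor Agtr1a. Growth hormone (Gh) had 5.22, 5.46 and 5.66 in PNET, against 10.36, 13.04 and 5.39 in grafted replicates 4, 5 and 6 (-4.16 ± 1.66, adjusted p = 0.179, limma). Prolactin (Prl) had 2.99, 3.79 and 3.49 in PNET, against 9.32, 11.17 and 3.16 in grafted tumours (-4.46 ± 1.79, adjusted p = 0.183). Cga, the shared subunit of the glycoprotein hormones, had 3.14, 3.19 and 3.56 in PNET, against 4.94, 11.28 and 3.47 in grafted tumours. Grafted replicate 6 and the AdCre-induced tumour, at 5.12 for Gh and 3.37 for Prl, read near the PNET values. Fshb, Pomc, Lhb, Tshb, Gnrhr, Ghrhr and Tbx19 were also highest in grafted replicate 5, at 5.79 to 11.33, and 0 of the 10 passed. These 10 were gathered after their values were seen, and their part in other results was not tested. Without grafted replicate 5, 606 transcript clusters rose and 670 fell, and with grafted replicate 6 alone on its side, a fit chosen after seeing the data, 184 rose and 305 fell, against 967 (4.16%) and 1253 (5.39%) with all 6 arrays.

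**Figure D4:**
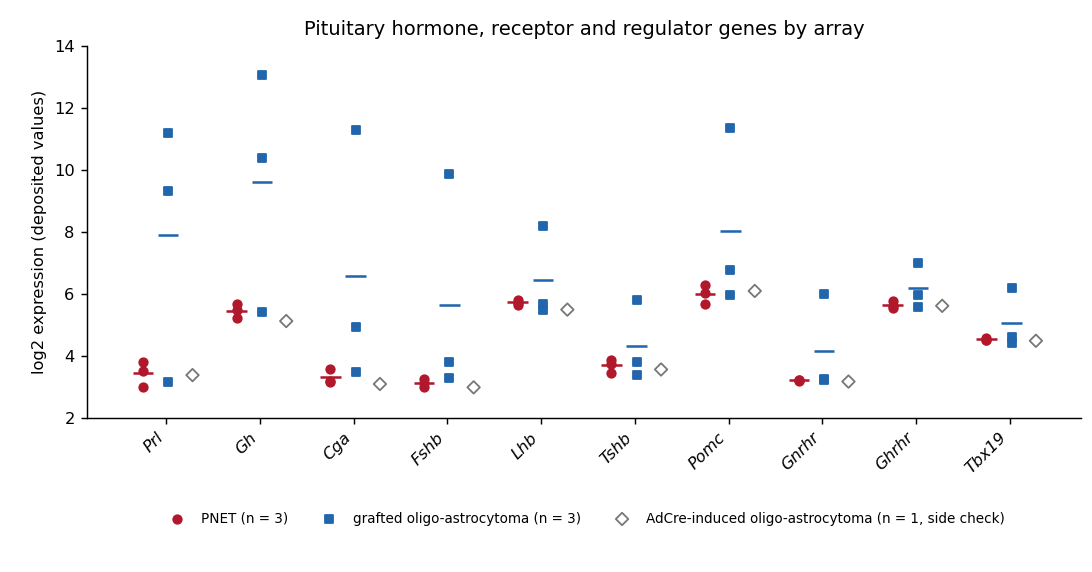
Deposited log2 expression (y axis) of 10 anterior pituitary genes (x axis), with PNET arrays as red circles, grafted oligo-astrocytomas as blue squares, group means as bars and the AdCre-induced oligo-astrocytoma as an open diamond. Grafted replicate 5 is the highest array for all 10 genes, up to 13.04 for Gh, and grafted replicate 4 is high for Prl and Gh.

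Called genes were unevenly spread over the chromosomes. On chromosome 12, 93 of 448 genes rose (20.8%) and 11 fell (2.46%), with a median difference of 0.46. On chromosome 5, 140 of 873 fell (16%) and 14 rose (1.6%), with a median of -0.30, and on chromosome 13, 75 of 530 fell (14.2%) and 16 rose, with a median of -0.15. On the other chromosomes the median lay between -0.10 and 0.09. These 3 chromosomes held 1851 of all 14807 genes, 123 of the 745 risen and 226 of the 1022 fallen genes. They held 5 of the 40 largest changes, among them Pdgfra on chromosome 5 and Tc2n on chromosome 12. That is near their share of all genes.

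Per array, the chromosome medians were taken relative to the mean of the 3 sphere arrays, AdCre and AdGFP together, and centred on the median of all genes. Chromosome 12 lay at 0.29, 0.11 and 0.13 in PNET, against -0.26, -0.19 and -0.40 in grafted tumours, and at 0.05 in the AdCre-induced tumour. Chromosome 5 lay at -0.22, -0.20 and -0.13 in PNET, against 0.12, 0.05 and 0.08 in grafted tumours, and at 0.15 in the AdCre-induced tumour. The 3 arrays of a type lay on one side of 0 in each case.

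Along chromosome 12 the difference was not even. In 10 bins of its measured genes, ordered on GRCm38.p6, the median difference was 0.01 in bin 1 and 0.03 in bin 2, which ends at Twistnb, and 0.38 to 0.79 in the other 8. The step was widest in grafted replicate 6, which lay at 0.40 and 0.25 in bins 1 and 2 and at -0.98 in bin 3. Id2 and Mycn, which lie before that step and were singled out after their values were seen, read 10.92 and 8.98 in that tumour beside 8.15 to 8.75 and 5.88 to 6.41 in the other grafts. On chromosome 5 all bins had a negative median, between -0.45 and -0.08, and bin 4, from Guf1 to Afm, held 24 fallen genes of 87. Copy number was not measured.

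**Figure D5:**
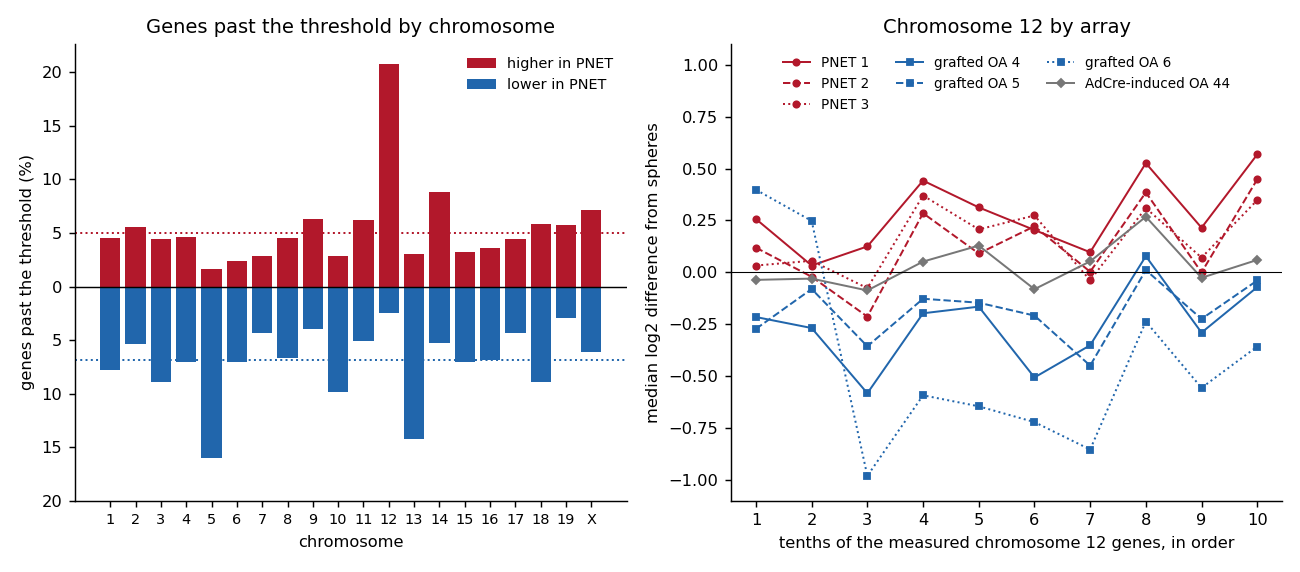
Left, percent of measured genes past the threshold on each chromosome, higher in PNET above 0 and lower in PNET below it, with the shares over all genes as dotted lines. Right, median log2 difference from the mean of the 3 sphere arrays in 10 bins of the chromosome 12 genes in their order, 1 line per tumour (OA, oligo-astrocytoma): from bin 3 on, grafted replicate 6 is lowest, down to -0.98, and every PNET lies above every graft.

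Y-linked genes, picked after their values were seen, read higher in the grafts on every array. Eif2s3y had 3.45, 2.92 and 2.89 in PNET, against 4.29, 5.77 and 4.69 in grafted tumours (-1.83 ± 0.38, adjusted p = 0.0272, limma), and 2.70 in the AdCre-induced tumour. It did not pass without PNET replicate 2 or 3 or grafted replicate 6. Kdm5d had 3.62, 3.26 and 3.49 in PNET, against 4.08, 4.88 and 4.28 in grafted tumours, and did not pass (adjusted p = 0.0544). The labels give no sex for tumours or hosts.

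The AdCre-induced oligo-astrocytoma shares its derivation with the PNET and its label with the grafts. Its value lay nearer the grafted mean than the PNET mean for 85.1% of the 745 risen genes (634) and 91.4% of the 1022 fallen genes (934), and for all 40 of the largest changes. With that array alone in place of the grafts, 259 of the risen and 475 of the fallen genes passed, and the difference had the opposite sign for 27 and 9. Of the 40 largest changes, 38 passed in that fit, the exceptions being Gpr17 and Luzp2. All called members of the photoreceptor, rod, cone, disc, ribbon, pineal, precursor and Hox lists lay nearer the grafts. Some lists and families had a share below both the 85.1% of risen genes and the 91.4% of fallen genes. They were the forkhead family (0 of 2 called members nearer the grafts), immediate-early and stress genes (1 of 4), MYC and oncofetal genes (3 of 5) and BMP and Id genes (3 of 5). The others were regulators of G protein signalling (3 of 4), astrocyte genes (10 of 12), E2F and S phase genes (10 of 12), Wnt genes (5 of 6) and kinesins (5 of 6).

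Several of the named genes lost their call in the fit with the AdCre-induced tumour in place of the grafts, with a difference smaller by over 1.5 times. Cdkn1a differed by 1.86 (adjusted p = 0.0552, limma), Kit by -2.17 (0.104), Elavl3 by -1.28 (0.159), Mycl by -0.52 (0.537), Mbp by -1.59 (0.348) and Agt by -1.71 (0.257) in that fit. Others were Gadd45a (0.72), Zmat3 (-0.78), Atp1b2 (0.52), Chrnb2 (0.55), Spc25 (0.77), St18 (-1.81), Stx1a (-0.35), Atf3 (0.90) and Kif5a (-0.89). Abca8a, Dixdc1 and Slc5a7, which were chosen for that array's value, also lost their call in this way.

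The called genes for which the AdCre-induced tumour lay farthest to the PNET side were, among the rises, Ddx60, Ifih1, Nmi, Dtx3l, Trim25 and Parp9. The list of interferon and MHC class I genes, of which 0 of 20 passed, had a mean of 9.04 in the AdCre-induced tumour. Ddx60, a helicase of antiviral defence, had 5.72, 7.49 and 7.54 in PNET, against 4.98, 4.33 and 4.08 in grafted tumours, and 8.39 in the AdCre-induced tumour. The other 5 read 7.75 to 8.82 there, above every PNET. Of these 6, Trim25 passed in every fit that left out an array, Nmi failed without grafted replicate 5, Ddx60, Dtx3l and Parp9 failed without PNET replicate 2 or 3 or grafted replicate 5 or 6, and Ifih1 passed only without PNET replicate 1. Among the falls these were Eif2s3y, Rcn3, Abca8a, Tmem45a, Slc5a7 and Dixdc1. Rcn3 did not pass without PNET replicate 3 or grafted replicate 5, nor Tmem45a without PNET replicate 2 or 3 or grafted replicate 4 or 5. Abca8a, a lipid transporter of oligodendrocytes, had 3.46, 3.78 and 3.899 in PNET, against 6.67, 5.64 and 5.78 in grafted tumours (-2.32 ± 0.30, adjusted p = 0.00447, limma), and 3.88 in the AdCre-induced tumour. Slc5a7, the choline transporter, had 6.10, 5.92 and 4.83 in PNET, against 8.13, 8.93 and 8.38 in grafted tumours, and 6.08 in the AdCre-induced tumour. The AdCre-induced tumour lay within the PNET range for 5 of these 6 falls and below it for Eif2s3y.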

How the data were processed

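Total RNA of the 6 tumours was hybridised to Affymetrix mouse exon arrays. The deposited values are log2 expression per transcript cluster, for which the submitters' processing notes list Partek, RMA and mm8 as the authors' tools and build. RMA corrects background, normalizes arrays to each other and summarizes probes; no version is stated in the labels. The log2 values were used as deposited, with no further scaling or pseudocount. A platform table named 1 gene for 14939 of 23238 clusters, several for 989 and none for 7310, and of 131 genes with several clusters the one with the highest mean was taken. The fit was limma 3.58.1 (lmFit, then eBayes; R 4.3.3) on the 6 arrays in 2 groups, with 4 residual degrees of freedom, two-sided, with Benjamini-Hochberg adjustment over all clusters.

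The fitting step was tested on simulated data. The 41 gene lists (873 of 1033 genes measured, 50 genes in more than 1 list) and 30 families were described by counts and medians. Members, lists and alternatives were chosen with earlier results of these data known. Named were the 20 largest changes per direction with groups apart (predicted genes passed over), up to 6 members per direction of each list (the 2 largest where fewer than 2 passed), the defining markers and the first 3 measured members of each list of another cell type, the 6 most variable genes per group, the 6 called genes per direction for which the AdCre-induced tumour lay farthest to the PNET side, and the genes whose promoter is printed. Other named genes, mainly members that did not pass, were chosen after their values were seen. Alternatives were quantile normalization, median centring, a filter on dim clusters, trended robust or no moderation, array weights, all 10 arrays, the AdCre-induced tumour added or in place of the grafts, the mean over clusters, and leaving out each array. Promoter windows were taken from RefSeq (GRCm38.p6).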

Additional observations from a re-analysis of the deposited data

How the results depend on the processing

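Of 23238 transcript clusters, 967 rose and 1253 fell, and 5555 had an unadjusted p under 0.05. With no variance moderation 138 rose and 229 fell, and with the AdCre-induced tumour in place of the grafts 359 rose and 823 fell. With grafted replicate 6 alone, chosen after seeing the data, 184 rose and 305 fell. In these 2 fits with 1 oligo-astrocytoma the lone array gives no spread of its own. Grafted replicate 6 alone was assumed to vary like the PNET. The fit with the AdCre-induced tumour in place was on all 10 arrays, so its spread also came from the grafts and the AdCre spheres. Those spheres read 9.54 and 5.67 for Gpr17 and 8.50 and 4.73 for Luzp2. The part of sphere spread in the calls lost in that fit was not tested. Leaving out 1 array gave 418 to 950 rises and 636 to 1272 falls: the lowest were 418 without PNET replicate 3 and 636 without PNET replicate 2, and rises also moved by over 1.5 times without PNET replicate 2 (566), grafted replicate 4 (565), grafted replicate 5 (606) and grafted replicate 6 (493), and falls without PNET replicate 3 (643) and grafted replicate 5 (670). The split of rises against falls moved with scaling, at 1189 and 1201 after quantile normalization and 1128 and 1215 after median centring, where the median difference over all genes was 0.03 and 0.04. With the AdCre-induced tumour in place of the grafts, 10 named genes changed sign: Ddx60 (-1.47), Dtx3l (-1.39), Ifih1 (-1.31), Nmi (-1.41), Parp9 (-0.90), Trim25 (-0.95), Rgs7 (-0.28), Eif2s3y (0.38), Rcn3 (0.26) and Tmem45a (0.17), and the cause was not tested. In the same fit another 114 genes of the naming rule lost their call without a change of sign, and 39 of them had a difference smaller by over 1.5 times, among them Cdkn1a (1.86), Kit (-2.17) and Elavl3 (-1.28). The groups carry replicates 1, 2 and 3 and replicates 4, 5 and 6. No paired analysis was possible because the groups compared share no replicate number. The 3 arrays per group limit the precision of each difference, and a value near the floor of the arrays gives little room to measure a further fall.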

Other observations

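Some gene groups outside the comparisons above also held genes past the threshold. Of 26 semaphorins and plexins, which guide growing axons and migrating cells, 9 fell and 2 rose, with a median of -0.51. Sema6a had 6.84, 6.42 and 6.27 in PNET, against 9.50, 9.14 and 8.38 in grafted tumours (-2.50 ± 0.32, adjusted p = 0.00406, limma). Sema3f went the other way, with 7.99, 9.43 and 9.56 in PNET, against 6.04, 6.36 and 6.07 in grafted tumours (2.84 ± 0.41, adjusted p = 0.0068). Both passed in every fit that left out an array, whereas the number of fallen semaphorins and plexins was 3 without PNET replicate 2 or 3 or grafted replicate 5 or 6 and 5 without grafted replicate 4.

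Of 27 kinesins, the motors that carry cargo along microtubules, 5 fell and 1 rose, with a median of 0.17. The neuronal motor Kif5a had 4.98, 4.98 and 5.10 in PNET, against 6.86, 7.67 and 8.29 in grafted tumours (-2.58 ± 0.34, adjusted p = 0.00494, limma), and the ciliary motor Kif3a fell by 1.90 ± 0.21. Kif3a, Kif5a and the risen Kif26b (1.64 ± 0.26) passed in every fit that left out an array, and the fallen kinesins numbered 2 without grafted replicate 5 and 3 without PNET replicate 2 or grafted replicate 4 or 6. Among 28 immediate-early and stress genes 4 rose and 0 fell, and 2 rose without PNET replicate 3 and 1 without PNET replicate 2 or grafted replicate 5 or 6. The gene that passed in every one of these fits was Atf3, a stress-induced transcription factor, with 7.70, 7.43 and 7.61 in PNET, against 6.05, 5.14 and 5.25 in grafted tumours (2.10 ± 0.27, adjusted p = 0.00419).

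Of 17 forebrain patterning genes Pax6 rose and 3 fell, and all 3 falls passed in each fit that left out an array. Nkx2-2, a factor of the ventral neural tube and of oligodendrocyte precursors, had 4.98, 4.47 and 4.398 in PNET, against 7.92, 7.47 and 6.58 in grafted tumours (-2.71 ± 0.36, adjusted p = 0.00478, limma). Nr2f1, a nuclear receptor that patterns the cortex, had 4.11, 4.88 and 4.95 in PNET, against 7.08, 7.54 and 7.24 in grafted tumours (-2.64 ± 0.27, adjusted p = 0.00177). The third was the Wnt effector Tcf7l2, which fell by 2.14, and the groups of Nkx2-2 and Nr2f1 did not overlap.

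With the AdCre-induced tumour in place of the grafts, Atf3 differed by 0.90 (adjusted p = 0.261, limma) and Kif5a by -0.89 (0.351). Sema6a (-1.69, adjusted p = 0.0702) and Kif26b (1.35, 0.0819) did not pass in that fit either.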
